A study of Mus musculus with 2 samples.

Results

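Urea synthesis and the amino acid breakdown that feeds it were followed through 10 genes in hepatocyte nuclei of mouse livers with diet-induced metabolic dysfunction–associated steatohepatitis (MASH). The members were the rows of the feature table with the symbols *Cps1*, *Otc*, *Ass1*, *Asl*, *Arg1*, *Gls2*, *Sds*, *Hal*, *Uroc1* and *Gldc*, 10 of 32285 genes. Each matched a single row, and all 10 had at least 200 UMIs in hepatocyte nuclei, as did 11205 genes in all (a UMI, or unique molecular identifier, marks a captured RNA molecule). Male C57BL6/J mice had been put on the AMYLIN liver NASH diet (fat 40% and fructose 20% of the energy, cholesterol 2%) at 10 to 12 weeks of age and kept on it for 5 months. Frozen liver was homogenized, nuclei were sorted and 3′ libraries were made on the 10x platform, with 1 library for each of 2 genotypes. The genotype of the Flox library is given as Themis flox/flox, although its title calls it WT, and the genotype was followed. HKO mice were Themis Alb-Cre, in which the floxed gene is meant to be deleted in hepatocytes by Cre under the albumin promoter. By the study's methods HKO mice were bred from Flox mice, so that both would carry the floxed allele. Both ate the diet, and neither library is of healthy liver. Tissue of several mice per genotype had been pooled, and animals cannot be separated. *Themis*, the deleted gene, stood at 162 CPM (counts per 1000000 UMIs) in the hepatocytes labelled Flox and at 251 CPM in those labelled HKO, and was not lower in the latter. Counts from the 3′ end need not cover the deleted part of a gene, so this level cannot check the labels. No difference between the libraries is assigned here to loss of *Themis*, and the groups are called by their labels.

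The urea cycle turns toxic ammonia into urea in hepatocytes. Along the liver lobule, hepatocytes near the portal vein (periportal) are known for urea synthesis, glutaminase and breakdown of serine, histidine and glycine, whereas a thin layer around the central vein (pericentral) takes up glutamate through *Slc1a2* and captures the remaining ammonia as glutamine through *Glul*, glutamine synthetase. *Cps1* makes carbamoyl phosphate from ammonia, *Otc* joins it to ornithine to give citrulline, *Ass1* and *Asl* build and split argininosuccinate, and *Arg1* releases urea from arginine. *Gls2* frees ammonia from glutamine. *Sds* deaminates serine, *Hal* and *Uroc1* catalyze successive steps of histidine breakdown, and *Gldc* is the decarboxylase of the glycine cleavage system.

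In GRCm38, as annotated in GENCODE, *Cps1* lies at chr1:67123026-67231259 (+), *Otc* at chrX:10252305-10321024 (+), *Ass1* at chr2:31470207-31520672 (+), *Asl* at chr5:130011258-130029247 (−) and *Arg1* at chr10:24915221-24927484 (−). *Gls2* lies at chr10:128194457-128210004 (+), *Sds* at chr5:120476526-120483932 (+), *Hal* at chr10:93488768-93519304 (+), *Uroc1* at chr6:90333284-90364551 (+) and *Gldc* at chr19:30098447-30175429 (−). Reads were counted over exons only, at the 3′ end of the RNA, and levels are not scaled by length, so the order of levels between genes is not read here. The promoters of 5 members matched the RefSeq table (build GRCm38.p6). The 120 bases just before the annotated start are shown for the 3 that hold a match of any motif searched. The choice rests on the match alone. They span chr10:93488648-93488767 (+) for *Hal*, chr6:90333169-90333288 (+) for *Uroc1* and chr19:30175442-30175561 (−) for *Gldc*, and the capitals mark matches of the CCAAT box and, in *Hal*, of the TATA box core on both strands, which overlap.
Hal: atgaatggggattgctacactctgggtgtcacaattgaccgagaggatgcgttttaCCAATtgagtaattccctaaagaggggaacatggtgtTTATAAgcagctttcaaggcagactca
Uroc1: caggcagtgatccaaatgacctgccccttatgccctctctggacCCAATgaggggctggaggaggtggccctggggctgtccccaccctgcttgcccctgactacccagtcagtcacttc
Gldc: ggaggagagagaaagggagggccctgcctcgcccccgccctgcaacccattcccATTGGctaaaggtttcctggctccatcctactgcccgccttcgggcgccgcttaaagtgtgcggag

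Motifs were searched on both strands of the 250 bases before the start. CCAAT was found in 3 of the 5 member windows and in 33.8% of 32851 windows of all genes. It began 64 bases before the start in *Hal* and 76 in *Uroc1* (with a second match on the other strand 237 bases before it), and on the other strand 66 bases before it in *Gldc*. TATAA was found in 1 of 5 (*Hal*) and in 22.8% of all windows. CAAAG, a core of the HNF4A motif, was found in 2 of 5 (*Hal* and *Uroc1*) and in 48.6% of all windows, and TTNNGCAA, a C/EBP motif, in 1 of 5 (*Hal*) and in 9.56%. *Otc* and *Ass1* held no match of these letters in this window. A match describes the letters and is not a site of binding.

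Hepatocyte nuclei were taken from clusters made without the member genes and named by their markers, of which 9 and 10 of 10 were raised in the 2 clusters kept. With at least 3000 UMIs per nucleus there were 5659 nuclei from Flox (median 7538 UMIs) and 3963 from HKO (median 6155 UMIs). Over all barcodes the median was 6216 UMIs in Flox and 2228 in HKO, and 27 barcodes occurred in both libraries. Nuclei in which *Glul* plus *Slc1a2* made up at least 0.1% of the UMIs were called pericentral. They numbered 1027 in Flox, 18.1% (95% exact binomial interval 17.2 to 19.2), and 623 in HKO, 15.7% (14.6 to 16.9). *Glul* stood at 2186 CPM in these nuclei and 44.1 CPM in the rest in Flox, and at 2747 and 54.9 CPM in HKO. No member was used for the split. With 1 library per genotype there is no replicate check and no test: intervals are 95% exact Poisson for levels and exact conditional binomial for ratios, and cover counting error only.

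All 10 members were lower in the pericentral nuclei than in the rest, in both libraries. The median log2 ratio, computed with 1 CPM added to both levels, was −4.44 in Flox and −4.29 in HKO, whereas over all 11205 genes it was −0.02 and −0.03. All 10 were more than 1.5-fold lower in each library, a mark passed by 6.07% of all genes in Flox, by 6.47% in HKO and by 3.62% in both. The members were chosen as periportal genes, with earlier results of these data known. Here and along the axis below, such shares describe the chosen list and test nothing. No member was that much higher, where 4.48% and 4.5% of all genes were.

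Among urea cycle genes the contrast was widest for *Arg1* and narrowest for *Otc*. *Cps1* stood at 25.4 CPM (21.8 to 29.4) in pericentral nuclei and 530.1 CPM (523 to 537) in the rest of the Flox library, and at 42.9 (36.5 to 50.1) and 683 CPM (672 to 693) in HKO. This was 20.9-fold (17.99 to 24.3) and 15.9-fold (13.6 to 18.7) more in the rest. *Arg1* stood at 22.1 CPM against 713 CPM in Flox and at 31.4 against 953 CPM in HKO. It was 32.2-fold (27.5 to 38.0) and 30.4-fold (25.4 to 36.8) higher in the rest.

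The middle enzymes of the cycle were graded less steeply. *Ass1* stood at 23.4 and 218 CPM in Flox and at 24.7 and 222 CPM in HKO, 9.33-fold (7.99 to 10.96) and 8.99-fold (7.32 to 11.2) more in the rest. *Asl* stood at 56.3 and 236 CPM in Flox and at 83.3 and 301 CPM in HKO, 4.19-fold (3.79 to 4.65) and 3.62-fold (3.23 to 4.06). *Otc*, the other mitochondrial enzyme of the cycle beside *Cps1*, stood at 52.8 and 140 CPM in Flox and at 35.6 and 99.6 CPM in HKO, only 2.65-fold (2.38 to 2.95) and 2.79-fold (2.34 to 3.35) apart. The intervals of *Otc* and *Cps1* did not overlap in either library.

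Of the genes of amino acid breakdown, *Gls2*, *Sds*, *Hal* and *Gldc* stood below 10 CPM in the pericentral nuclei of both libraries, and *Uroc1* stood higher. *Gls2* stood at 2.73 CPM (1.64 to 4.26) there and 110 CPM in the rest of Flox, and at 2.95 CPM (1.47 to 5.27) and 95.8 CPM in HKO, 40.2-fold (25.7 to 66.8) and 32.5-fold (18.1 to 65.2). *Sds* stood at 6.75 and 239 CPM in Flox and at 9.65 and 324 CPM in HKO, 35.4-fold (26.6 to 48.3) and 33.6-fold (24.2 to 48.0). *Hal* stood at 4.74 and 140.3 CPM in Flox and at 2.41 and 85.3 CPM in HKO, 29.6-fold (21.1 to 43.1) and 35.4-fold (18.6 to 77.4). *Gldc* had 7 UMIs in all pericentral Flox nuclei and 1 in those of HKO, against 46.0 and 60.3 CPM in the rest, and its ratio of pericentral to rest was 0.022 (0.0088 to 0.045) in Flox and 0.0044 (0.00011 to 0.025) in HKO. *Uroc1*, which acts right after *Hal* on the same pathway, kept 55.8 CPM against 504 CPM in Flox and 58.2 against 501 CPM in HKO, 9.03-fold (8.17 to 10.0) and 8.62-fold (7.54 to 9.91).

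**Figure D1:**
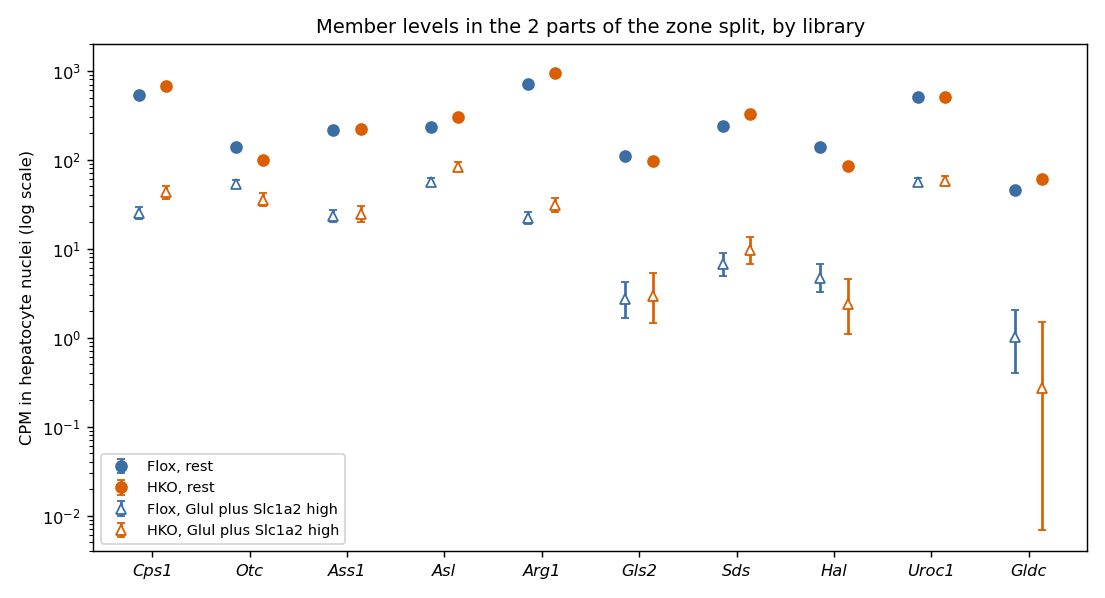
Levels of the 10 members in CPM on a log scale, in pericentral hepatocyte nuclei (*Glul* plus *Slc1a2* at least 0.1% of UMIs, open triangles) and in the rest (filled circles), for the library labelled Flox (blue) and the library labelled HKO (orange), with 95% Poisson intervals of the counts. Every triangle lies below its circle, and the gap is smallest for *Otc* (52.8 and 140 CPM in Flox).

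The contrast was alike in size in the libraries. The ratio of the HKO contrast to the Flox contrast had an interval that included 1 for 9 of 10 members. For *Cps1* it was 1.31 (1.06 to 1.62), with the pericentral level of HKO closer to the rest. The axis described below did not repeat this difference. From its most central to its most portal bin *Cps1* rose 15.6-fold (13.0 to 19.0) in Flox and 19.3-fold (15.5 to 24.2) in HKO. In the most central bin its HKO to Flox ratio was 1.03 (0.773 to 1.37). Whether the pericentral level of *Cps1* is background was also not settled, as described below. The depth of a nucleus went with the split: the median was 6601 UMIs in pericentral nuclei and 7727 in the rest in Flox, and 5559 and 6261 in HKO, and with every nucleus thinned to 3000 UMIs the median log2 ratio was −4.53 and −4.20, all 10 members lower in both. When predicted doublets were kept, the median log2 ratio became −3.34 in Flox and −3.86 in HKO, and all 10 members stayed more than 1.5-fold lower.

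In CPM, much of the pericentral signal was at the level that nuclei of other cell types carried. These were 2521 nuclei of Flox and 4814 of HKO in cholangiocyte-, endothelial-, stellate-, macrophage-, T cell- and B cell-like clusters, which were shallower, with medians of 1611 and 1188 UMIs against 6601 and 5559 in pericentral nuclei. In CPM, *Gls2* stood at 2.73 in pericentral nuclei and 4.29 in the other cell types of Flox, and at 2.95 and 4.84 in HKO. *Sds* (6.75 and 10.4 CPM in Flox, 9.65 and 12.6 CPM in HKO), *Hal* (4.74 and 5.19, 2.41 and 3.39) and *Gldc* (1.005 and 2.71, 0.268 and 3.39) were likewise no higher in pericentral hepatocytes than outside hepatocytes. Per nucleus, however, *Gls2*, *Sds* and *Hal* gave 2.45 (1.23 to 4.90), 2.51 (1.63 to 3.85) and 3.52 (2.01 to 6.28) times as many UMIs in pericentral nuclei of Flox. In HKO these ratios were 2.83 (1.28 to 5.82), 3.57 (2.33 to 5.36) and 3.31 (1.34 to 7.54). Whether the pericentral levels of these 4 genes are background was not settled, and their folds may set the rest of the hepatocytes against background.

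*Cps1*, *Arg1* and *Ass1* were below the other cell types in Flox and above them in HKO. *Cps1* stood at 25.4 CPM in pericentral nuclei and 41.3 CPM in the other cell types of Flox, and at 42.9 and 36.6 CPM in HKO. *Arg1* stood at 22.1 and 38.4 CPM in Flox and at 31.4 and 26.4 CPM in HKO, and *Ass1* at 23.4 and 25.97 CPM and at 24.7 (19.9 to 30.2) and 18.4 CPM. In HKO the pericentral intervals of *Cps1* and *Arg1* included the level of the other cell types, and so did that of *Ass1* in Flox (19.9 to 27.3 CPM). Whether the pericentral levels of *Cps1*, *Arg1* and *Ass1* are background was likewise not settled, and their folds carry the same limit. In CPM, only *Otc*, *Asl* and *Uroc1* stood clear of the other cell types in both libraries. *Otc* stood at 52.8 CPM against 12.2 CPM in Flox and at 35.6 against 6.45 CPM in HKO, *Asl* at 56.3 against 17.8 CPM and at 83.3 against 17.6 CPM, and *Uroc1* at 55.8 against 16.7 CPM and at 58.2 against 12.7 CPM. Counted per 100 nuclei, where deeper nuclei weigh more, *Gldc* gave 0.682 UMIs (0.274 to 1.40) in pericentral nuclei and 0.476 (0.246 to 0.832) in the others of Flox, and the other 9 members gave 2.22 to 16.7 times as many UMIs in pericentral nuclei.

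No other cell type stood above hepatocytes in any member. In endothelial-, stellate- and macrophage-like nuclei, the largest shares of the hepatocyte level were those of *Ass1* in macrophage-like nuclei of Flox, at 18.5% (34.96 against 189 CPM, from 43 UMIs), followed by *Otc* in endothelial-like nuclei of Flox, at 16.2%. Against the level that free hepatocyte RNA would give, scaled from abundant secreted-protein transcripts, every member in every other cell type lay below expectation, at 0.636 of it or less. These reference transcripts themselves ranged from 14.6% to 59.0% of their hepatocyte level in those 3 cell types of Flox, so the expectation is coarse.

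To place all hepatocytes and not only the pericentral layer, nuclei were thinned to 3000 UMIs and ordered by central and portal genes other than the members (log2 of summed portal UMIs minus log2 of summed central UMIs, each with 1 added), then cut into 6 equal bins within each library. *Glul* fell from 2271 CPM in the most central bin to 3.53 CPM in the most portal bin of Flox, and from 2611 to 2.02 CPM in HKO. *Cyp2f2*, a portal gene of the axis, rose from 6.003 to 360 CPM and from 1.51 to 222 CPM. Every member was lowest in bin 1 and highest in bin 6 of both libraries, and 19 of the 20 profiles rose at every step.

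The profiles fell into a broad and a steep kind. *Arg1* already stood at 284 CPM in bin 2 and went on through 569, 765, 924 and 1042 CPM in Flox, and from 32.3 CPM in bin 1 through 400, 763, 966, 1146 and 1448 CPM in HKO. *Cps1* rose from 42.0 to 281, 449, 585, 636 and 657 CPM in Flox, nearly flat over the last bins, and from 43.4 to 455, 700, 762, 695 and 836 CPM in HKO. That dip at bin 5 of HKO was the 1 step that did not rise. *Otc* ran from 58.3 to 174 CPM in Flox and from 35.3 to 128 CPM in HKO, the shallowest profile of the 10, at 2.99-fold (2.50 to 3.59) and 3.62-fold (2.77 to 4.79) from end to end.

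*Sds* was the most portal member. It stood at 2.47, 4.595, 15.2, 156, 509 and 694 CPM from bin 1 to bin 6 of Flox and at 7.06, 11.6, 49.9, 138, 449 and 892 CPM in HKO. The 2 most portal bins held 87.1% of its UMIs (86.0 to 88.1) in Flox and 86.6% (85.4 to 87.8) in HKO. *Hal*, *Gls2* and *Gldc* held 74.8%, 73.9% and 73.4% of their UMIs there in Flox and 76.4%, 71.3% and 69.5% in HKO. *Uroc1*, *Ass1*, *Asl* and *Arg1* held between 49.0% and 58.9%, *Cps1* 48.8% and 43.9%, and *Otc* 44.4% and 43.3%. *Sds*, *Hal*, *Gls2* and *Gldc* reached 50% of their bin 6 level only in bin 5 in both libraries, whereas the other 6 reached it by bin 4.

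Neighbours in this order did not all differ beyond counting error. The share of *Sds* lay clear of every other member in both libraries, the intervals of *Hal*, *Gls2* and *Gldc* overlapped each other in Flox, and *Cps1* and *Otc* overlapped in HKO (42.7 to 45.1% and 40.3 to 46.3%). Within histidine breakdown, *Hal* was cut to 12.8% of its bin 6 level in bin 3 of Flox, where *Uroc1* still had 38.1%, and to 16.0% and 47.2% in HKO. From the most central to the most portal bin, 11.8% of 11170 genes outside the axis were more than 1.5-fold higher in Flox and 12.2% in HKO, and all 10 members were. No member was that much lower, where 11% and 10.4% of genes were.

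**Figure D2:**
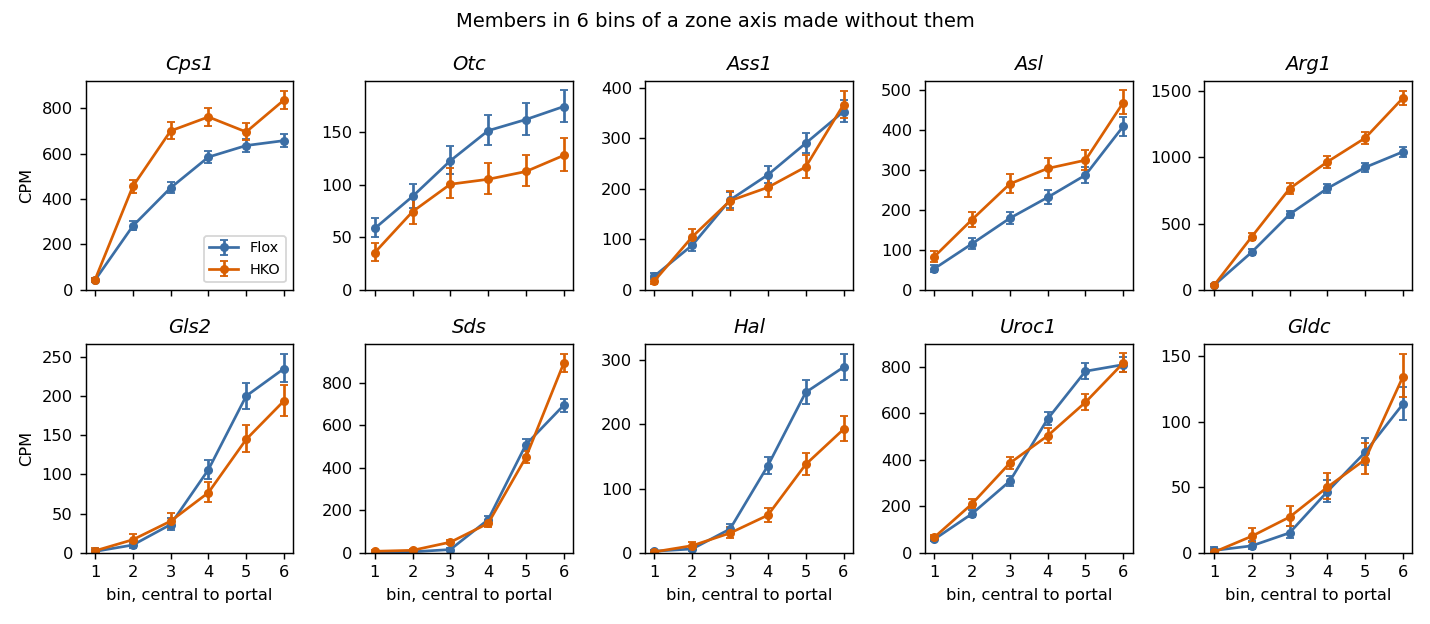
CPM of each member (linear scale from 0) in 6 equal bins of hepatocyte nuclei ordered from central (1) to portal (6) by genes other than the members, counts thinned to 3000 UMIs per nucleus, for the library labelled Flox (blue) and the library labelled HKO (orange), with 95% Poisson intervals. *Cps1* and *Arg1* rise from bin 2 on, whereas *Sds*, *Hal*, *Gls2* and *Gldc* are below 50% of their bin 6 level through bin 4, and *Hal* ends at 289 CPM in Flox and 192 CPM in HKO.

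Between nuclei, the members rose and fell together. Since counts per nucleus are low (from a mean of 0.130 UMIs for *Gldc* to 1.81 for *Arg1* in thinned Flox nuclei), the plain Pearson correlation of a pair was small, with a median over the 45 pairs of 0.216 in Flox and 0.233 in HKO. A noise-corrected correlation, in which the Poisson part is taken out of each variance, had a median of 0.563 in Flox (5659 nuclei) and 0.574 in HKO (3963 nuclei). The nuclei of a library share their library and their tissue pool, and the values are a description. By the noise-corrected measure *Gls2* and *Uroc1* were the closest pair in both libraries, at 0.90 and 0.86, although the proteins act on different amino acids. By the plain Pearson correlation that pair stood at 0.306 in Flox and 0.282 in HKO. The closest pairs were then *Arg1* and *Sds* in Flox (0.359) and *Ass1* and *Sds* in HKO (0.447). The values that follow are noise-corrected. *Hal* and *Uroc1*, which share a pathway, stood at 0.67 and 0.59, and *Gls2* and *Sds* at 0.77 and 0.75.

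The lowest pair of each library held *Otc*. Its pairs ran from 0.40 (with *Asl*) to 0.64 (with *Uroc1*) in Flox and from −0.02 (with *Gldc*) to 0.58 (with *Gls2*) in HKO, and the pair with *Gldc* was the only one of the 90 values below 0. At 5000 UMIs per nucleus that pair stood at 0.12. *Cps1* and *Ass1* stood at 0.54 in Flox and 0.70 in HKO, and *Hal* and *Ass1* at 0.49 and 0.28. In nuclei below the pericentral cutoff the median was 0.482 in Flox and 0.533 in HKO, so that the members also varied together among those nuclei. Those nuclei still differ in their place along the axis, and co-variation at a fixed place on it was not computed. *Gls2* and *Uroc1* still stood at 0.88 and 0.84 there.

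The spread between nuclei beyond counting noise, given as excess variance over the squared mean, was largest for *Sds* (2.56 in Flox and 3.94 in HKO), *Gldc* (2.44 and 2.53) and *Hal* (2.22 and 3.30). It was smallest for *Otc* in Flox (0.362) and for *Asl* in HKO (0.628). *Ass1* had 0.863 in Flox and 1.58 in HKO, and *Cps1* 0.682 and 1.05. *Asl* had about the same value in both (0.683 and 0.628).

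**Figure D3:**
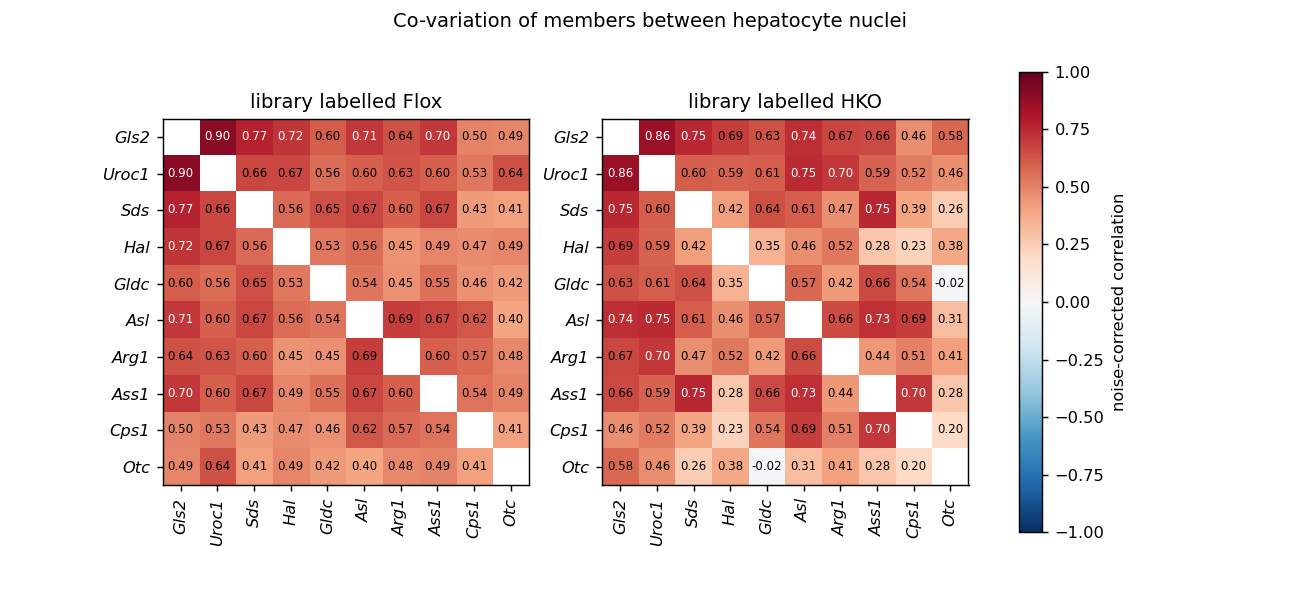
Noise-corrected correlation of every pair of members between hepatocyte nuclei thinned to 3000 UMIs, in the library labelled Flox (left, 5659 nuclei) and the library labelled HKO (right, 3963 nuclei), on a color scale from −1 to 1 with the values written in. *Gls2* and *Uroc1* form the darkest cell of both panels (0.90 and 0.86), and the palest row is that of *Otc*, with −0.02 against *Gldc* in HKO.

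Among 4128 genes outside the lists that were detected in at least 10% of nuclei of both libraries, those whose counts followed the mean of the 10 members most closely were *Sfxn1*, a mitochondrial serine carrier, with a Pearson correlation of 0.54 in both libraries, *Aspg* (an asparaginase, 0.46 and 0.46), *Upp2* (0.42 and 0.50), *Hamp* (hepcidin, 0.48 and 0.42), *Slc25a51* (a mitochondrial NAD carrier, 0.38 and 0.42), *AC135859.1* (0.36 and 0.40), *Wsb1* (0.33 and 0.36) and *Igf1* (0.43 and 0.32). *Sfxn1* was lower in pericentral nuclei than in the rest by log2 ratios of −5.20 in Flox and −4.84 in HKO, more than any member in Flox. At the other end stood *Abcb4* (−0.41 and −0.40), *Slco1b2* (−0.57 and −0.38), *Cyp2c38* (−0.37 and −0.44), *Akr1c6* (−0.49 and −0.36), *Themis* (−0.44 and −0.34), *Gm13775* (−0.43 and −0.32), *Cyp2a5* (−0.41 and −0.31) and *Aldh3a2* (−0.54 and −0.31). Genes were ranked by the weaker of their correlations in the libraries, not within each library. By that rank the deleted gene of the study was among the 8 of these 4128 genes most opposed to the members. *Themis* fell along the axis from 308 to 1.06 CPM in Flox and from 418 to 50.5 CPM in HKO.

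The next comparison, HKO over Flox over all hepatocyte nuclei, gave values close to 1 beside the zone contrast. The median log2 ratio of the members was 0.21, against −0.02 over all genes, and 0.063 once every nucleus was thinned to 3000 UMIs. *Hal* was the only member past 1.5-fold, lower in HKO, where 8.24% of all genes were that much lower, and no member was past it upward, where 6.3% of all genes were. The members' shares of 1 and 0 of 10 are near that background.

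*Cps1* stood at 453 CPM (447 to 460) in Flox and 593 CPM (583 to 602) in HKO, an HKO to Flox ratio of 1.31 (1.28 to 1.33). *Arg1* stood at 608 and 824 CPM, an HKO to Flox ratio of 1.36 (1.33 to 1.38), and *Asl* at 208 and 271 CPM, an HKO to Flox ratio of 1.299 (1.26 to 1.34). *Otc* went the other way, at 127 CPM (123 to 130) and 90.6 CPM (87.0 to 94.3), an HKO to Flox ratio of 0.715 (0.682 to 0.750). *Ass1* stood at 189 and 194 CPM, an HKO to Flox ratio of 1.03 (0.993 to 1.06), so that the 5 genes of the cycle did not move as 1 block.

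*Hal* stood at 120 CPM (117 to 123) in Flox and 73.6 CPM (70.4 to 77.0) in HKO, an HKO to Flox ratio of 0.615 (0.584 to 0.648). *Uroc1*, the following enzyme, stood at 436 and 439 CPM, an HKO to Flox ratio of 1.01 (0.984 to 1.03). *Gls2* stood at 93.3 and 82.7 CPM, an HKO to Flox ratio of 0.886 (0.842 to 0.933). *Sds* stood at 204 and 280 CPM, an HKO to Flox ratio of 1.37 (1.33 to 1.42), and *Gldc* at 39.2 and 51.8 CPM, an HKO to Flox ratio of 1.32 (1.23 to 1.42). Along the axis, *Hal* was lower in HKO in bins 4 to 6, at 0.432 (0.348 to 0.533), 0.551 (0.477 to 0.634) and 0.665 (0.588 to 0.752) of the Flox level, whereas the intervals of bins 1 to 3 included 1, with ratios of 0.612, 1.85 and 0.829. *Otc* was lower in 5 of 6 bins, at between 0.606 and 0.818, and stood at 0.837 (0.678 to 1.03) in bin 2. The bins are sixths of each library and need not be the same place in the lobule.

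Several of these ratios turned with the depth of the nuclei. In nuclei of 3000 to 6000 UMIs *Sds* stood at 320 CPM in Flox and 238 CPM in HKO, an HKO to Flox ratio of 0.743 (0.699 to 0.791). In nuclei of 12000 UMIs and over it stood at 125 and 388 CPM, an HKO to Flox ratio of 3.10 (2.86 to 3.36). *Ass1* went from 0.802 (0.743 to 0.864) to 1.49 (1.37 to 1.62), *Gls2* from 0.682 (0.611 to 0.760) to 1.16 (1.01 to 1.32), and *Gldc* from 0.863 (0.742 to 1.004) to 2.05 (1.70 to 2.47). *Uroc1* went from 0.931 (0.887 to 0.977) to 1.10 (1.04 to 1.17).

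*Cps1* (1.36 and 1.34), *Otc* (0.810 and 0.716) and *Hal* (0.581 and 0.848) kept their direction in the shallow and the deep nuclei, and so did *Arg1* and *Asl*. Deep nuclei also lay elsewhere on the axis: of those with 12000 UMIs and over, 22.3% of 667 were in the most portal of 3 equal parts of the axis in Flox and 41.0% of 205 in HKO, and of those with 3000 to 6000 UMIs 39.6% of 1379 and 31.9% of 1851. Within that portal part alone *Sds* still went from an HKO to Flox ratio of 0.893 (0.837 to 0.954) to 2.10 (1.91 to 2.30), and *Ass1* from 0.747 (0.679 to 0.823) to 1.53 (1.35 to 1.74). *Hal* stayed between 0.496 and 0.678 in the 3 depth classes of the portal part. The depth classes were chosen after the data were seen.

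**Figure D4:**
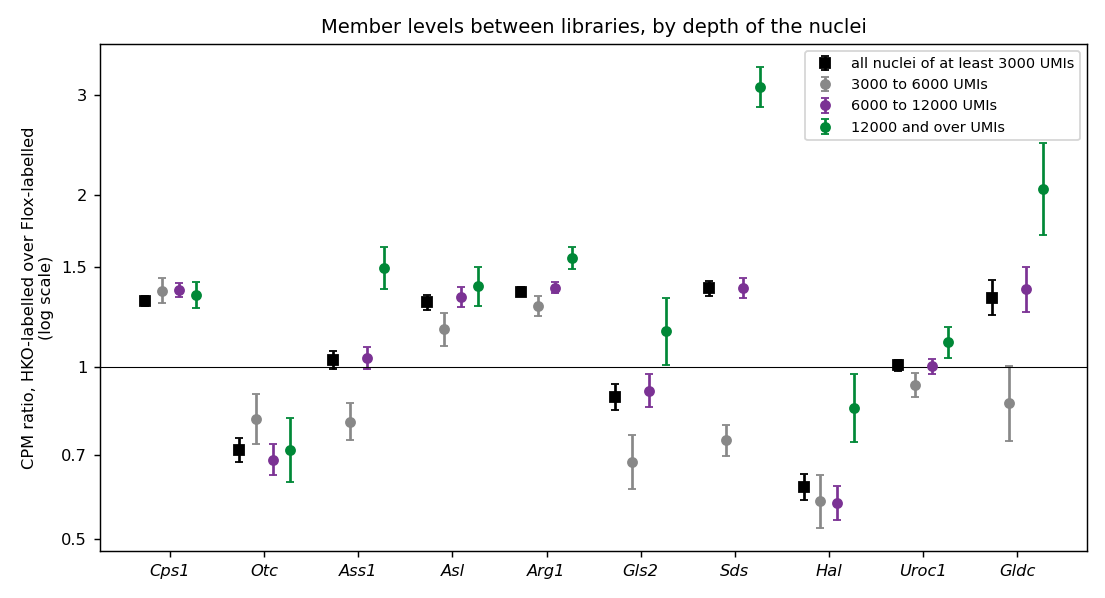
Ratio of member CPM in the library labelled HKO to that in the library labelled Flox (log scale, line at 1) over all hepatocyte nuclei of at least 3000 UMIs (black squares) and in 3 depth classes (circles), with 95% intervals of the counts. *Cps1*, *Arg1* and *Asl* stay above 1 and *Otc* and *Hal* below it, whereas *Sds* runs from 0.743 in the shallowest class to 3.10 in the deepest.

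Hepatocytes with disease-associated markers were a population of interest of the study. A thinned nucleus was counted as marker-positive with UMIs of at least 2 of *Nrg1*, *Anxa2*, *Gdf15*, *Sox4*, *Klf6* and *Jun*, and compared with nuclei that had none. There were 552 positive nuclei in Flox, 9.75% (8.99 to 10.6), and 778 in HKO, 19.6% (18.4 to 20.9), with 3256 and 1789 nuclei of none. Depth was alike, at medians of 7448 and 7536 UMIs in Flox and 6233 and 6145 UMIs in HKO. All 10 members were lower in the positive nuclei of both libraries, with a median log2 ratio of −0.46 in Flox and −0.79 in HKO, against 0.03 and 0.07 over 11200 genes. In Flox 2 members (*Sds* and *Hal*) were more than 1.5-fold lower, where 3.84% of genes were. In HKO 9 were, where 3.34% of genes were, and *Arg1* was the exception. None was that much higher, where 3.91% of genes in Flox and 7.04% in HKO were. The members were chosen with earlier results of these data known, so these shares too describe the chosen list and test nothing. *Alb*, which encodes albumin, was also lower, at 0.815 and 0.792 of its level in the others, and *Apob* was at 1.07 and 1.08.

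*Sds* stood at 163 CPM in positive nuclei and 257 CPM in the others in Flox, a positive to none ratio of 0.635 (0.558 to 0.720), and at 118 and 330 CPM in HKO, 0.358 (0.314 to 0.407). *Ass1* stood at 165 and 206 CPM in Flox, 0.802 (0.704 to 0.910), and at 105 and 230 CPM in HKO, 0.457 (0.396 to 0.524). *Hal* stood at 71.9 and 133 CPM, 0.542 (0.445 to 0.654), and at 42.8 and 88.9 CPM, 0.482 (0.385 to 0.599). *Arg1* stayed nearest to 1, at 0.883 (0.823 to 0.947) in Flox and 0.727 (0.685 to 0.770) in HKO.

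Pericentral nuclei made up 18.3% of positive nuclei and 17.97% of the others in Flox, and 11.4% and 16.5% in HKO. The median axis value was 0.905 in positive nuclei and 1.14 in the others in Flox, and 1.71 and 1.78 in HKO. Among nuclei below the pericentral cutoff the median log2 ratio was −0.45 in Flox and −0.88 in HKO. Along the axis cut into 3 equal parts, from central to portal, it was 0.06, −0.60 and −0.25 in Flox and −0.18, −0.86 and −0.78 in HKO. In the most portal of these parts of HKO *Sds* stood at 318 CPM in positive nuclei and 810 CPM in the others, and in that of Flox at 532 and 642 CPM. Whether the ratios of the libraries differ beyond counting cannot be tested with 1 library each.

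**Figure D5:**
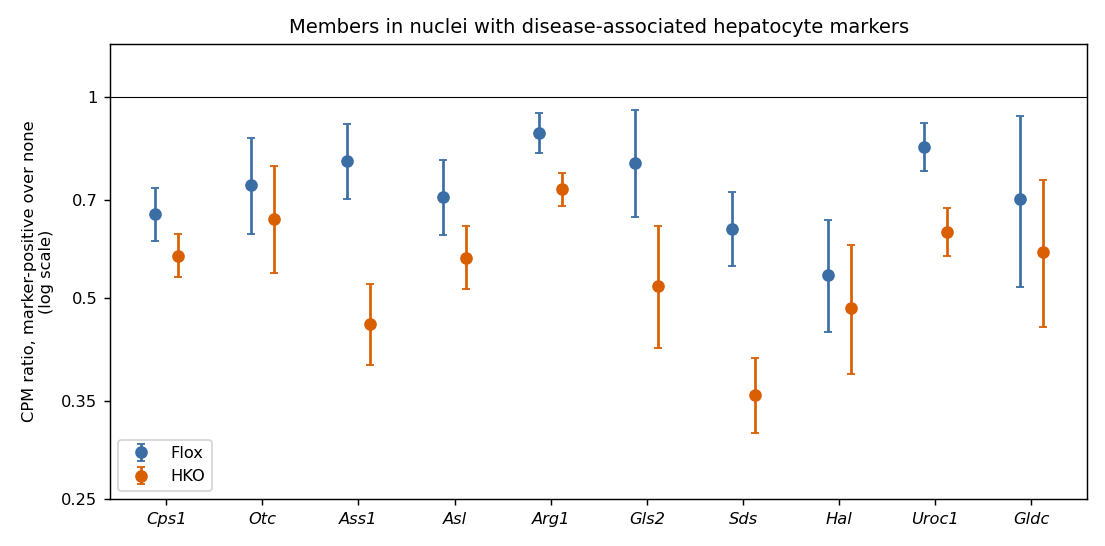
Ratio of member CPM in hepatocyte nuclei with UMIs of at least 2 of 6 disease-associated markers to that in nuclei with none (log scale, line at 1), for the library labelled Flox (blue) and the library labelled HKO (orange), with 95% intervals of the counts. All 20 points lie below 1, and the lowest is *Sds* in HKO at 0.358.

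Of 92 other genes on lists of nitrogen and amino acid handling, of pericentral genes and of regulators, 90 had at least 200 UMIs. In the zone contrast 11 were more than 1.5-fold lower in pericentral nuclei in both libraries and 8 were higher. Of the 8, 6 were on the pericentral list. Most of the listed genes did not share the size of the members' contrast. The members were chosen as periportal genes, so this comparison tests nothing. Of 19 genes that feed or serve the urea cycle, 3 were lower in both, *Slc7a2* (a cationic amino acid carrier, log2 −1.63 in Flox and −1.75 in HKO), *Slc38a4* (−0.84 and −0.96) and *Got1* (−0.79 and −1.01), and 1 was higher, *Prodh* (0.93 and 1.04). *Nags*, whose product switches on CPS1, stood at 36.5 CPM in pericentral nuclei and 33.2 CPM in the rest of Flox, and at 15.3 and 17.0 CPM in HKO, with no such contrast.

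Of 15 genes of histidine, glycine and serine breakdown, 4 were lower in both and none was higher. *Amdhd1*, the histidine pathway enzyme that follows *Uroc1*, stood at 5.89 and 112 CPM in Flox (log2 −4.03) and at 14.7 and 90.5 CPM in HKO (−2.54), and *Ftcd*, which ends the pathway, at 295 and 533 CPM (−0.85) and at 235 and 429 CPM (−0.87). *Sdsl*, with 3 and 1 UMIs in pericentral nuclei (ratios of pericentral to rest of 0.0614, 0.0126 to 0.181, and 0.0345, 0.00087 to 0.195), and *Agxt* (−0.90 and −1.08) were the others. Of 14 aromatic amino acid genes 3 were lower in both (*Tat*, *Kyat1* and *Kynu*), and of 18 genes of sulfur amino acid, branched-chain and lysine breakdown none was past 1.5-fold in both libraries.

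The 6 genes of the pericentral list other than *Glul* and *Slc1a2* were all higher in pericentral nuclei of both libraries. Listed as pericentral genes, they do not all handle nitrogen. The order here is that of the log2 ratio (with 1 CPM added) in the library nearer to 0. They were *Oat*, ornithine aminotransferase (467 and 32.0 CPM in Flox, log2 3.83, and 389 and 20.7 CPM in HKO, 4.16), *Rhbg*, an ammonia channel (3.79 in Flox and 3.76 in HKO), *Lgr5* (3.26 and 2.94), *Tbx3* (2.56 and 2.47), *Axin2* (2.61 and 2.45) and *Slc1a4* (1.98 and 2.05). Without the added CPM *Rhbg* stood 29.5-fold higher in Flox and *Oat* 14.6-fold. Of 18 receptors and factors listed as regulators, *Onecut1* alone was lower in both (−1.15 and −1.07) and *Nr1i3* alone higher (0.78 and 0.76). Whether they act on the members was not tested.

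Between the libraries, 10 of the 90 genes were more than 1.5-fold lower in HKO and 6 higher, with a median log2 ratio of −0.11. Over all 11205 genes 8.24% were lower and 6.3% higher, so that these shares are near the background. The lowest were *Agxt* (21.4 CPM in Flox and 9.38 CPM in HKO, log2 −1.11), *Nags* (33.7 and 16.8 CPM, −0.97), *Kyat1* (141 and 73.1 CPM, −0.93) and *Grhpr* (86.6 and 46.0 CPM, −0.90). The highest were *Onecut1* (79.98 and 199 CPM, 1.31), *Slc1a4* (1.90 and 4.94 CPM, 1.03), *Got1* (61.0 and 120 CPM, 0.97) and *Ppargc1a* (42.4 and 79.5 CPM, 0.89). *Onecut1* was also among the genes most raised in the cholangiocyte-like cluster, which held 1.56% of kept nuclei in Flox and 5.58% in HKO. Whether this bears on its level in hepatocyte nuclei was not tested. *Nags* was lower in HKO, whereas *Cps1*, the enzyme its product activates, was higher there.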

How the data were processed

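Single-nucleus RNA-seq was analysed from 2 pooled-tissue liver libraries, 1 per genotype. The authors deposited raw UMI counts per gene and barcode, for which reads had been aligned to mm10 (GRCm38) by Cell Ranger 8.0.1, intronic reads being left out, with no normalization. Intronic reads make up much nuclear RNA, so levels rest on exonic molecules. Totals were 58171337 UMIs in Flox and 40475938 in HKO, with at least 500 per barcode.

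Barcodes with at least 300 genes were kept, and the highest Scrublet scores were removed as doublets (scanpy 1.11.5, 0.8% per 1000 barcodes): 701 in Flox and 920 in HKO. Seurat 5.3.0 under R 4.3.3 joined the libraries (3000 variable genes, 15 components, clustering resolution 0.2) without the members, the pathway lists and the disease-associated markers among the features. Clusters were named from at least 3 markers raised 1.5-fold over the median of the other clusters, a reference chosen after the clusters were seen. A mitochondria-rich cluster (36 nuclei in Flox, 76 in HKO) stayed unnamed. CPM was computed over all UMIs of a set of nuclei. Log2 ratios carry a pseudocount of 1 CPM. A value was called past 1.5-fold without a test. Interval coverage and thinning were tested on simulated Poisson counts, which lack the spread between nuclei beyond counting noise seen here.

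Members and lists were chosen with earlier results of these data known. Named were all members, the 4 highest and 4 lowest pathway genes by library and by zone ratio, and the 8 genes most and least like the members. Other genes were named as counted members of their lists. Alternatives covered depth, thinning, equal weight, scaling (TMM in edgeR 4.0.16), pseudocounts, doublets, clustering and cutoffs.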

Additional observations from a re-analysis of the deposited data

How the results depend on the processing

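The zone contrast kept its direction for all 10 members in both libraries under every alternative run. Its median log2 ratio moved to −3.10 in Flox and −2.92 in HKO with a pseudocount of 10 CPM, to −3.34 and −3.86 with doublets kept, and to −3.83 and −3.86 at a cutoff of 0.05%. In Flox it was −4.95 at 0.2% and −4.93 with *Glul* alone. With doublets kept, a deep cluster of mixed markers stayed outside the hepatocytes, so that setting restored only some doublets. The portal over central median was 2.72 in Flox and 2.49 in HKO with 3 bins, and 4.79 and 4.02 with central genes alone. The co-variation median in Flox was 0.48 below the cutoff, and the marker-positive median in HKO was −0.42 with at least 1 of 6 markers. The median of HKO over Flox was less firm: 0.063 with thinned counts, 0.075 with every nucleus weighted equally, −0.25 in nuclei of 3000 to 6000 UMIs and 0.44 in those of 12000 and over, where 0 members were past 1.5-fold lower and 3 higher. These depth classes, and counting the mitochondria-rich cluster as hepatocytes, which moved no median or count of members past its limits, were chosen after seeing the data. With a pseudocount of 10 CPM 5 pathway genes were past 1.5-fold lower in HKO, against 10. The cause of these shifts was not tested. TMM factors shifted log2 ratios by 0.03 or less. Depth limits *Gldc* most, with 8 UMIs in all pericentral nuclei.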
